A study of Mus musculus with 2 samples.

Results

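Annotated nonsense-mediated decay isoforms of mouse gastrocnemius muscle are described here. They are the transcripts that GENCODE M21 types as nonsense_mediated_decay and to which long reads were assigned as Known, meaning that the read carried the annotated splicing of that transcript. Of 7186 isoforms so annotated in 4576 genes, 472 isoforms of 426 genes had at least 1 read. They stood among 18253 Known isoforms with reads. The series holds 2 long-read RNA libraries, biological replicates 1 and 2 of a single group, each started from 2 µg of gastrocnemius RNA. The mice were B6CASTF1/J females 18 to 20 months old. B6CASTF1/J animals are a first-generation hybrid of a laboratory strain and a wild-derived strain. Both libraries carry the same donor record, no label ties them to separate animals, and the series has no treated or other group. Every test below therefore compares these libraries and measures counting error between them, which may be technical.

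Nonsense-mediated decay is the pathway by which cells degrade messenger RNAs whose stop codon lies well upstream of an exon junction. The protein complex left at each junction after splicing is normally removed by the translating ribosome. A complex that remains downstream of the stopped ribosome recruits the helicase UPF1 and its partners, and the RNA is broken down. Many RNA-binding proteins use the pathway to limit their own level through an exon, called a poison exon, that carries a stop codon. A read of such an isoform shows RNA that was present when the tissue was collected, and its level is what synthesis and decay left together.

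Sequences of 10 isoforms are shown first, chosen from those with many reads to show how a changed exon brings in a stop codon. Smpx-201 and Chpt1-207, ranks 2 and 4 by reads, are not printed, since they end at the stop codon of the coding isoform. Each of the first 8 sequences runs 5′ to 3′ along the transcript, begins at the 5′ end of the exon that holds the stop codon or at most 60 bases before its end, and ends at the stop codon, which is in capitals. They were read from the GENCODE M21 transcript sequences on mm10, and no earlier stop codon stood in their reading frame. The first 4 stops lie in an exon that the most read coding isoform of the gene lacks.
E2f6-204: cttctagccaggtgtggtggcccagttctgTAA
Thap12-202: atgcattttgcagaggcatcagaaaacTAA
Yaf2-202: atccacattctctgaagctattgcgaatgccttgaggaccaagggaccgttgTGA
Actg1-206: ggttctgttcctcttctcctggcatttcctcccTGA
The added exon of E2f6-204 is 66 bases at chr12:16813847-16813912 on the plus strand, and its stop codon ends at base 33 of the exon. That of Thap12-202 is 95 bases at chr7:98707937-98708031 on the plus strand, with the stop ending at base 30. In Yaf2-202 the added exon is 70 bases at chr15:93317539-93317608 on the minus strand, with the stop ending at base 55. In Actg1-206 it is 45 bases at chr11:120347492-120347536 on the minus strand, with the stop ending at base 36. In all 4 the stop codon stands inside the added exon. The E2f6 and Actg1 exons have lengths divisible by 3, and the Thap12 and Yaf2 exons do not.

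In the next 4 isoforms the stop was reached by keeping an intron, by extending an exon or by losing bases from the coding frame.
Ddx5-208: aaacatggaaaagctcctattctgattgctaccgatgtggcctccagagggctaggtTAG
Tmem234-210: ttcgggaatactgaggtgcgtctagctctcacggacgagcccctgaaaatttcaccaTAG
Adhfe1-201: atggctgtctcaaatatTAG
Psma3-201: ctattgggatcagatgTAA
Ddx5-208 keeps 1265 bases of intron sequence inside an exon at chr11:106782469-106784018 on the minus strand, and its stop codon ends 65 bases into that exon of 1550 bases. Tmem234-210 extends an exon by 109 bases, on the plus strand at chr4:129600983-129601243. Adhfe1-201 lacks a 41-base exon and meets its stop 20 bases into the following exon, at chr1:9552923-9552976. Psma3-201 lacks 5 bases at the start of its exon 3, at chr12:70983324-70983442, and stops 19 bases into it.

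Small shifts of a splice site were seen in 3 much-read isoforms, which are printed beside the coding isoform of the gene with 25 bases on either side of the change. Capitals mark the bases that 1 isoform of the pair has and the other lacks.
Cyth2-203: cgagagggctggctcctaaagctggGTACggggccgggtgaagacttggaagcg
Cyth2-202: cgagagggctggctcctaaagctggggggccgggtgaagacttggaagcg
Psma3-201: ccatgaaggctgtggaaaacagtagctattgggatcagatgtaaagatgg
Psma3-202: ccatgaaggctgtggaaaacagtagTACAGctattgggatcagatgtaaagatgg
Rbm38-206: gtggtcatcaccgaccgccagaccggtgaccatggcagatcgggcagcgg
Rbm38-201: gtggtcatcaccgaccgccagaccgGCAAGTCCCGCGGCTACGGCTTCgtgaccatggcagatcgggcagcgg
Cyth2-203 gains 4 bases, chr7:45810123-45810126 on the minus strand, at the 3′ end of an exon. Psma3-201 loses 5 bases, chr12:70983319-70983323, at the 5′ end of an exon. Rbm38-206 loses 23 bases, chr2:173022248-173022270, at the 3′ end of an exon. Cyth2, Psma3 and Rbm38 encode an exchange factor for ARF GTPases, a proteasome subunit and an RNA-binding protein. None of the 3 changes is a multiple of 3 bases.

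Annotated mouse genes had 1117891 reads in replicate 1 and 975696 in replicate 2, of which 710842 and 578694 were Known. The 6 markers of skeletal muscle fibres together took 331751 counts per 1000000 reads (CPM) in replicate 1 and 361883 CPM in replicate 2. Markers of fibroblasts (3 of 3 genes read), macrophages (1 of 2), endothelium (2 of 2), blood (2 of 2), nerve (2 of 2) and adipocytes (2 of 2) summed to between 6.26 and 404 CPM per list and library, and the satellite cell marker Pax7 had 0 reads in both. The part of other cell types in the shares below was not tested. The most uneven of these lists was that of macrophages, at 38.5 CPM in replicate 1 and 7.17 CPM in replicate 2. The fibre list (Acta1, Ckm, Atp2a1, Myh4, Tnnc2 and Actn3) holds no slow-fibre marker, so it does not show whether the libraries match in fibre type. The slow troponin C gene Tnnc1, outside the lists, had 104 Known reads in replicate 1 and 594 in replicate 2. The part of fibre type in the comparisons of the libraries was not tested.

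The isoforms took a small share of the RNA. They held 1253 of the Known reads in replicate 1, or 0.176% (95% Wilson interval 0.167 to 0.186), and 984 in replicate 2, or 0.170% (0.160 to 0.181). The mean was 0.173 ± 0.00441% (SD, n = 2), and no difference between the libraries was detected by a 2-sided Fisher's exact test (p = 0.407). Intervals cover the counting error of reads only. The reads carry no molecular identifiers in the files, so repeated reads of the same molecule could not be told apart. Over all reads of annotated genes, whatever their class, the same Known reads of the isoforms made up a mean of 0.106%. There replicate 1 was higher than replicate 2 by 0.0112 percentage points (Fisher's exact p = 0.0131). Known reads were 710842 of 1117891 in replicate 1 and 578694 of 975696 in replicate 2. This comparison also carries that Known fraction, so it cannot decide whether the share of the class differs. Reads of all classes with a junction annotated in the class alone were 0.263% in replicate 1 and 0.273% in replicate 2. Transcripts typed retained_intron took 0.822 ± 0.0413% of Known reads and those typed protein_coding 96.9 ± 0.379%. Of the annotated isoforms of each type, reads were found for 6.57% of the nonsense-mediated decay type, 6.34% of retained_intron and 24.7% of protein_coding. Non-stop decay, a related fate of RNAs without a stop codon, had 3 annotated isoforms with 10 reads in all.

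Most of the 472 isoforms were rare. Reads in both libraries were found for 186 of them, in replicate 1 alone for 159 and in replicate 2 alone for 127. The median isoform had 2 reads, 229 had 1 read, 85 had at least 5 and 43 had at least 10. E2f6-204, Smpx-201 and Ddx5-208, the top 3, held 26.1% of all reads of the class, and the top 10 held 39.9%. An isoform with a single read can only be present in 1 library.

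For share within a gene, 1444 genes had an annotated isoform of the class and at least 20 Known reads over both libraries. In 252 of them 289 such isoforms were read, and in 1192 none was. Among the 252 genes the median share of Known reads was 3.45%, with quartiles of 1.58% and 10%. A share of at least 10% was found in 64 genes, at least 20% in 30 and at least 50% in 7. These medians describe genes in which a read was found, and a gene with few reads can only enter with a high share: over the 165 genes with at least 20 Known reads in each library, share and Known reads had a Spearman rho of -0.43 as a description across genes. Across the same 165 genes the shares of the libraries had a Pearson r of 0.899 and a Spearman rho of 0.461, and their median absolute difference was 2.26 percentage points. Genes are not independent replicates, and every share has its own counting error.

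**Figure D1:**
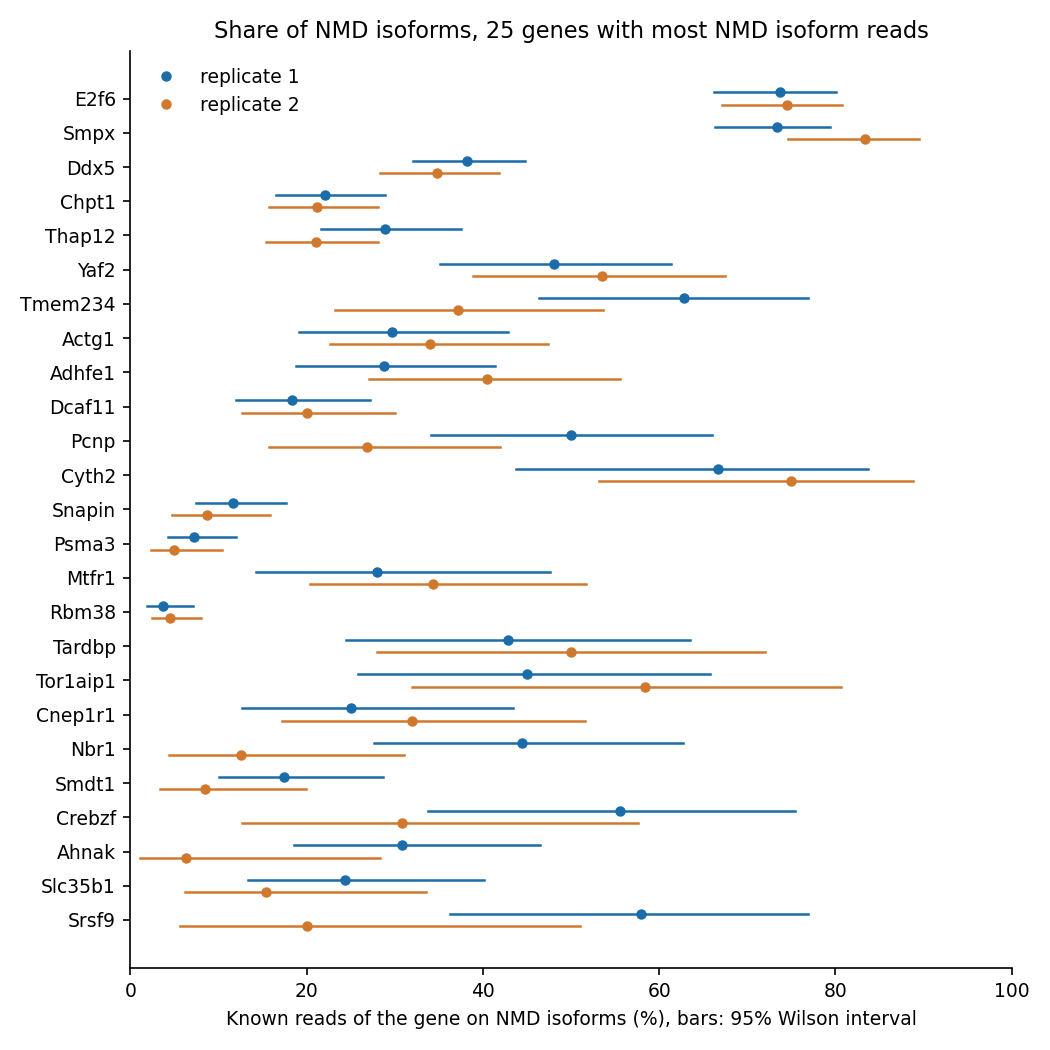
Share of each gene's Known reads on its nonsense-mediated decay (NMD) isoforms (x axis, percent) in replicates 1 and 2, for the 25 genes with the most such reads; points are library values and bars 95% Wilson intervals. E2f6 (73.7% and 74.5%), Smpx (73.4% and 83.3%) and Cyth2 (71.1% over both libraries) have the highest shares, and the bars of the libraries are wide below about 20 reads, as for Srsf9 and Tor1aip1.

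E2f6 had the most reads of the class. E2f6 encodes a repressor of the E2F family that works with Polycomb complexes. E2f6-204 had 112 of 152 Known reads in replicate 1 (73.7%, interval 66.2 to 80.0) and 117 of 157 in replicate 2 (74.5%, 67.2 to 80.7). The coding isoform E2f6-201 had 38 and 39 reads. The added exon cuts the open reading frame to 46 codons, against 272 in E2f6-201, and leaves 6 junctions after the stop. Yaf2 encodes another Polycomb partner, first known as a YY1-associated factor. Its isoform Yaf2-202 had 25 of 52 reads in replicate 1 and 23 of 43 in replicate 2, beside 27 and 20 for the coding Yaf2-201. Thap12, a zinc finger protein gene, had 33 of 121 and 32 of 157 Known reads on Thap12-202, with 85 and 124 on the coding Thap12-201. Crebzf, a bZIP regulator, had 14 of 31 Known reads over 3 isoforms of the class. In E2f6 the libraries lay within each other's intervals, and so did those of Yaf2.

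Smpx, a small muscle protein encoded on the X chromosome, had the highest share and the least distinct isoform. Smpx-201 had 126 of 173 Known reads in replicate 1 and 79 of 96 in replicate 2, and a second isoform, Smpx-207, had 1 in each. The coding isoform Smpx-203 had 46 and 15 reads. Smpx-201 (chrX:157698910-157752591) has the same 85-codon frame and the same stop codon as Smpx-203. It differs from it by an exon of 35 bases after the stop, which puts the last junction 52 bases downstream, just past the 50 bases that define the class. The annotation also holds a protein_coding transcript, Smpx-208, with the intron chain, start and stop of Smpx-201, to which no Known read was assigned. In 7 isoforms of the class, with 227 reads, the chain was shared with a protein_coding transcript in this way; 6 of these also shared its stop codon, Tbrg4-211 (5 and 6 reads) among them. Reads of such pairs cannot be assigned to a type by their splicing. Without the 7, the share of Known reads was 0.156%, and without Smpx 0.157%.

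Of the 18 genes of the hnRNP and RNA-binding list with an annotated isoform and at least 20 Known reads, 10 had reads of the class, against 252 of 1444 (17.5%) among all such genes. Together the list had 116 reads in replicate 1 and 92 in replicate 2. Most came from Ddx5, an RNA helicase of splicing and transcription: Ddx5-208 had 84 of 220 Known reads in replicate 1 (38.2%, 32.0 to 44.8) and 65 of 187 in replicate 2 (34.8%, 28.3 to 41.8). The coding isoform Ddx5-201 had 136 and 122. Tardbp encodes TDP-43, which binds the end of its own transcript and limits its own level. Tardbp-201 had 9 of 21 reads in replicate 1 and 7 of 16 in replicate 2, beside 11 and 8 for the coding Tardbp-202. It splices out 1680 bases that Tardbp-202 keeps, and stops 3′ of the coding isoform's stop, with 298 codons against 414. Hnrnpdl-201 had 5 and 4 reads among 36 and 16 Known reads. Hnrnpa1-203 had 2 of 57 and 6 of 25, and Hnrnpa2b1 had 10 of 299 over Hnrnpa2b1-207 and Hnrnpa2b1-209. Rbm39, Snrpb, Rbm5, U2af1 and Hnrnpl had 1 to 6 reads each.

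SR proteins are the splicing factors best known for poison exons. The SR list had 12 genes with an annotated isoform and at least 20 Known reads. Of these, 3 had reads of the class (25%, against 17.5% of all such genes). The median share over these 3 was 8.77%, against 3.45% over 252 genes. The list summed to 15 reads in replicate 1 and 8 in replicate 2, or 2.62% and 2.14% of its Known reads, against 0.176% and 0.170% for all genes and a mean of 0.875% over genes with an annotated isoform of the class, which 17 of the 19 listed genes have. Srsf9-205 gave 13 of the 23 reads of the list, with 11 of 19 Known reads of its gene in replicate 1 and 2 of 10 in replicate 2. Srsf6-201 had 3 of 34 and 2 of 23, and Srsf3-201 had 0 of 36 and 1 of 21. In all 3 the isoform adds an exon and the stop lies in sequence that the coding isoform lacks. Luc7l and Tra2b had 2 reads of the class each, in genes with 13 and 4 Known reads. Listed genes with no read of the class included Srsf2 (83 Known reads), Srsf4 (66), Srsf5 (51), Srsf1 (29) and Srsf7 (28).

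Actg1, Adhfe1, Mtfr1 and Smdt1 were among the 25 genes with the most reads. Actg1 encodes cytoplasmic gamma actin, and an Actg1 splice form with an added exon that ends the reading frame is known from skeletal muscle. Actg1-206 had 16 of 54 Known reads in replicate 1 (29.6%, 19.1 to 42.8) and 18 of 53 in replicate 2 (34.0%, 22.7 to 47.4), beside 38 and 35 for the coding Actg1-202. Its frame is 132 codons, against 375. Adhfe1, a mitochondrial transhydrogenase gene, had 17 of 59 and 17 of 42 reads on Adhfe1-201. Mtfr1, a regulator of mitochondrial fission, had 7 of 25 and 11 of 32 on Mtfr1-201. Smdt1, which encodes the EMRE subunit of the mitochondrial calcium uniporter, had 11 of 63 and 4 of 47 on Smdt1-204. All of these intervals overlapped between the libraries.

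Mitochondrial respiration genes were picked by the start of their symbol, which also took in genes such as Cox19 and Sdhaf2 that are not subunits. Of the 20 with an annotated isoform and at least 20 Known reads, 8 had reads of the class (40%, against 17.5% of all such genes). The 8 held 34 such reads in all. Their median share was 0.854%, against 3.45%. The 20 genes held 22627 Known reads, against 244220 over all 1444 such genes. A gene with more reads can more easily show a read of the class and a low share. The part of depth in both comparisons was not tested. Ndufs6-202 was the highest with 5 of 84 and 6 of 85 reads, and Atp5o-206 the lowest with 1 of 718 and 0 of 577. Among ribosomal protein and translation genes, picked by the start of their symbol, 6 of 32 had reads of the class (18.8%, near the 17.5% of all such genes), with a median share of 0.611%, and the whole list held 13 reads. One of the 6 is Rps6kb2, a kinase that the symbol rule took in. Rpl10a-203 had 1 read in each library among 214 and 93 Known reads.

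Further genes of the 25 with the most reads cover several functions. Chpt1, which makes phosphatidylcholine, had 38 of 172 and 35 of 165 reads on Chpt1-207 (22.1% and 21.2%). That isoform keeps the full frame of 398 codons and splices out 2348 bases after the stop codon, so that its last junction lies 72 bases downstream. Cyth2-203 had 12 of 18 and 15 of 20 reads, beside 5 and 5 on the coding Cyth2-202. Tmem234 had 22 of 35 and 13 of 35 reads over 5 isoforms, led by Tmem234-210 with 18 and 10. Tor1aip1, an inner nuclear membrane protein gene, had 9 of 20 and 7 of 12 on Tor1aip1-206. Snapin, a factor of vesicle and lysosome transport, had 18 of 155 and 9 of 103 over Snapin-205 and Snapin-204. Slc35b1, a nucleotide transporter of the endoplasmic reticulum, had 9 of 37 and 4 of 26, and Cnep1r1, a regulator of lipin phosphatases, had 7 of 28 and 8 of 25. The class thus ran from a small minority of a gene's reads, as in Snapin, to most of them, as in Cyth2.

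The rest of the 25 genes with the most reads are these. Dcaf11, a ubiquitin ligase receptor gene, had 18 of 98 and 16 of 80 reads over 2 isoforms. Pcnp, a nuclear protein gene, had 17 of 34 and 11 of 41 over 2. Psma3 had 13 of 180 and 6 of 121, and Rbm38 had 8 of 216 and 10 of 224. Ahnak, which encodes a giant scaffold protein, had 12 of 39 and 1 of 16 on Ahnak-205, but its leading coding isoform among Known reads, Ahnak-201, is itself 830 bases long with 150 codons. Nbr1, an autophagy receptor gene, had 12 of 27 in replicate 1 and 3 of 24 in replicate 2. Among the 15 highest shares with at least 10 reads, Tmem183a (4 of 9 and 8 of 12) and Khdc4 (5 of 23 and 7 of 14) were the only genes outside those 25. Near the limit of 20 Known reads, Tmem183a with 21 lay just inside, and Acbd4, with 13 of 18 on Acbd4-202, just outside. In all, 174 genes with 183 isoforms and 319 reads lay under the limit.

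**Figure D2:**
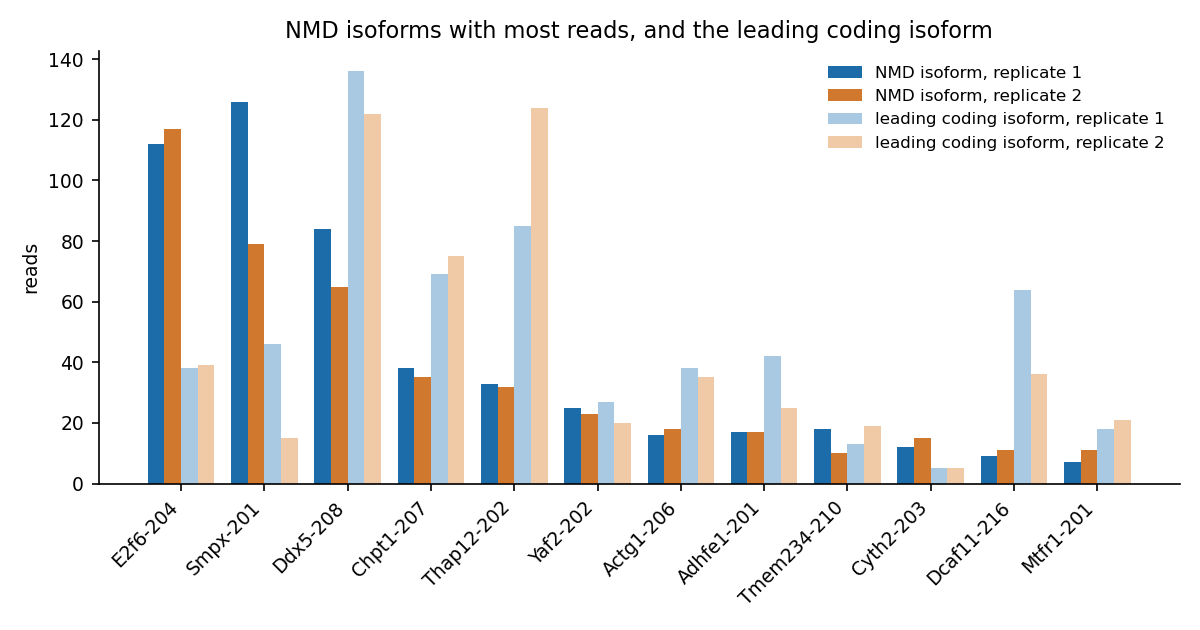
Reads (y axis) of the 12 NMD isoforms with the most reads, in replicates 1 and 2 (dark bars), beside the most read coding isoform of the same gene (light bars). The NMD isoform exceeds the coding isoform in both libraries in E2f6, Smpx and Cyth2, and falls below it in both in Ddx5, Chpt1, Thap12, Actg1, Adhfe1, Dcaf11 and Mtfr1. Smpx-201 shares its intron chain with the protein_coding Smpx-208, so its reads cannot be assigned to a type.

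In 8 isoforms with at least 10 reads, the isoform of the class had more reads than the leading coding isoform of its gene. They were E2f6-204 (229 against 77 in the libraries together), Smpx-201 (205 against 61), Yaf2-202 (48 against 47), Cyth2-203 (27 against 10), Acbd4-202 (13 against 5), Tmem183a-205 (12 against 9), Tmem238-202 (11 against 2) and Fbxo17-202 (10 against 3). The last 2 and Acbd4 are genes with under 20 Known reads. Only in E2f6, Smpx and Cyth2 was the gene above that limit and the isoform ahead in both libraries. Reads of Smpx-201 cannot be told by their splicing from the protein_coding Smpx-208. Without isoforms that share a chain in this way, the Smpx share was 0.743%.

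Abundant genes set the other end. The 1192 genes without a read of the class included Tpm1, a tropomyosin of the thin filament, with 0 of 36951 Known reads, which allows a share of up to 0.00812%. Lactate dehydrogenase Ldha had 0 of 14710 (up to 0.0204%), cytochrome oxidase subunit Cox4i1 0 of 4593 (up to 0.0653%) and the ATP synthase subunit Atp5a1 0 of 4373 (up to 0.0686%). The chaperone Hsp90ab1 had 0 of 2049 (up to 0.146%). Each limit is the 3 reads that a count of 0 allows. Of the muscle contraction list, 3 of 29 genes have an annotated isoform of the class, 2 of them passed 20 Known reads and neither had a read of it. Of the polyamine list, 2 genes passed and neither had one, while Sat1, under the limit, had 1 read. The slow troponin C gene Tnnc1, which is not on that list, had 1 of 104 and 6 of 594 Known reads on Tnnc1-203.

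The libraries were compared isoform by isoform. Of the 289 isoforms of the class, 0 differed in their share of the gene's Known reads at an adjusted p of 0.05, against 11 of all 6995 Known isoforms tested (0.157%; 2-sided Fisher's exact, Benjamini-Hochberg adjusted). At an unadjusted p below 0.05 there were 2 of the class and 199 of all isoforms. The 2 were Hnrnpa1-203, at 2 of 57 and 6 of 25 reads (Fisher's exact p = 0.00873), and Nbr1-208, at 12 of 27 and 3 of 24 (p = 0.0157), both with an adjusted p of 1. An edgeR exact test of isoform levels took its dispersion from the same 2 libraries that it compared, so it cannot decide whether isoforms of the class differ. For most isoforms the reads were too few for anything but a large difference to be called. The figure of gene shares shows it in Srsf9, where 57.9% and 20.0% had intervals of 36.3 to 76.9 and 5.67 to 51.0.

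The isoforms were compared in structure with the most read coding isoform of the gene. Shifted splice sites without another kind of difference were the commonest class (187 isoforms, 601 reads). Next came skipped exons (98 isoforms, 310 reads) and added exons (95 isoforms, 872 reads). An isoform may have more than a single change of its kind. Added exons were 20.1% of isoforms and 39.0% of reads of the class, with 229 and 205 of the 872 from E2f6-204 and Smpx-201. Several kinds of difference together were found in 50 isoforms, an extra intron in 19, a kept intron in 9, a different terminal exon in 4 and different ends alone in 5. Ddx5-208 gave 149 of the 166 reads with a kept intron, and Chpt1-207 gave 73 of the 136 with an extra intron. The remaining 5 isoforms had no coding isoform with which to compare.

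**Figure D3:**
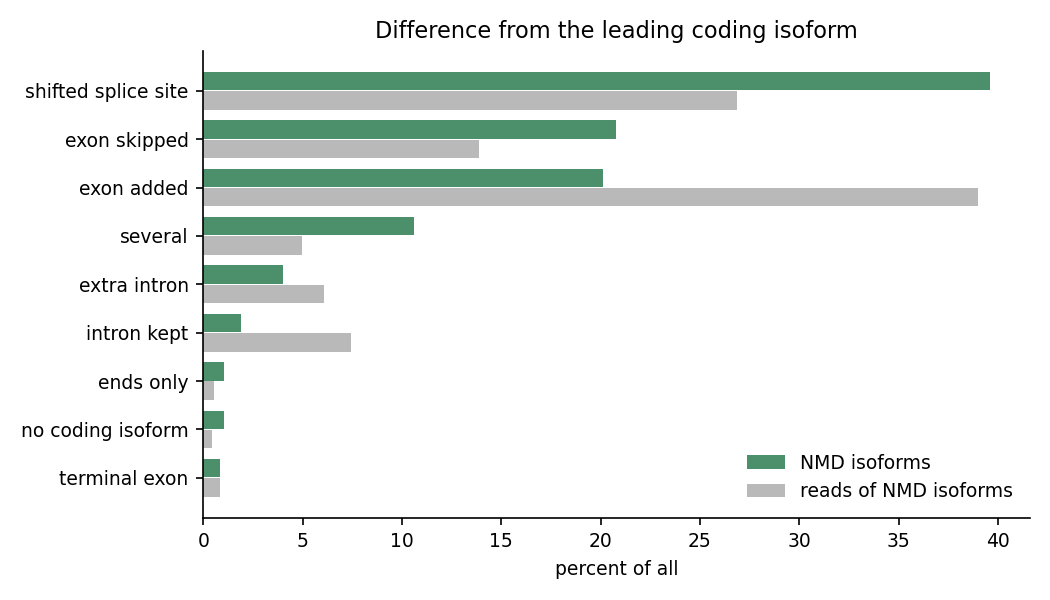
Percent of the 472 NMD isoforms and percent of their 2237 reads (x axis) by the way the isoform differs from the leading coding isoform of its gene (y axis). Shifted splice sites lead among isoforms (39.6%) and added exons among reads (39.0%).

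The size of the change differed by its kind. Sizes are the net bases that an isoform gained or lost against the coding isoform. With added exons the median was 101 bases (32 to 515), a multiple of 3 in 29 of 95. With skipped exons it was 103 bases (6 to 631), a multiple of 3 in 2 of 98. With shifted sites it was 49 bases (2 to 2703), a multiple of 3 in 19 of 187. Shifted sites gave a net gain in 96 isoforms and a net loss in 91. Where an added exon kept the frame, the stop lay inside new sequence in 27 of 29. Where an exon was skipped, the stop lay inside the coding isoform's frame span in 97 of 98. Shifts with a net change of at most 6 bases were found in 21 isoforms with 93 reads, led by Cyth2-203 (27), Psma3-201 (18) and Snapin-204 (12). Whether errors in long reads near a splice site add to such small shifts was not tested. Annotators type an isoform by its stop codon, so these frame counts describe the class and are not findings about it.

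Stop codons lay where the definition puts them. Of 471 isoforms with an annotated stop, 469 had it more than 50 bases before the last junction, and 2 did not: Thap12-204 at 50 bases and Ubl5-205 at 38. The median distance was 339 bases (38 to 9212), with a median of 3 junctions after the stop, and 111 isoforms had a single junction there. Leading coding isoforms of the same genes had the stop in the last exon in 395 of 417, and 3 had it more than 50 bases before the last junction. The stop lay inside the coding isoform's frame span in 265 isoforms (857 reads), in sequence the coding isoform lacks in 167 (960 reads), and at the coding isoform's own stop in 28 (378 reads). The last group, with Smpx-201, Chpt1-207 and Hnrnpdl-201 in it, ends its frame at the coding isoform's stop and has its junctions after it.

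**Figure D4:**
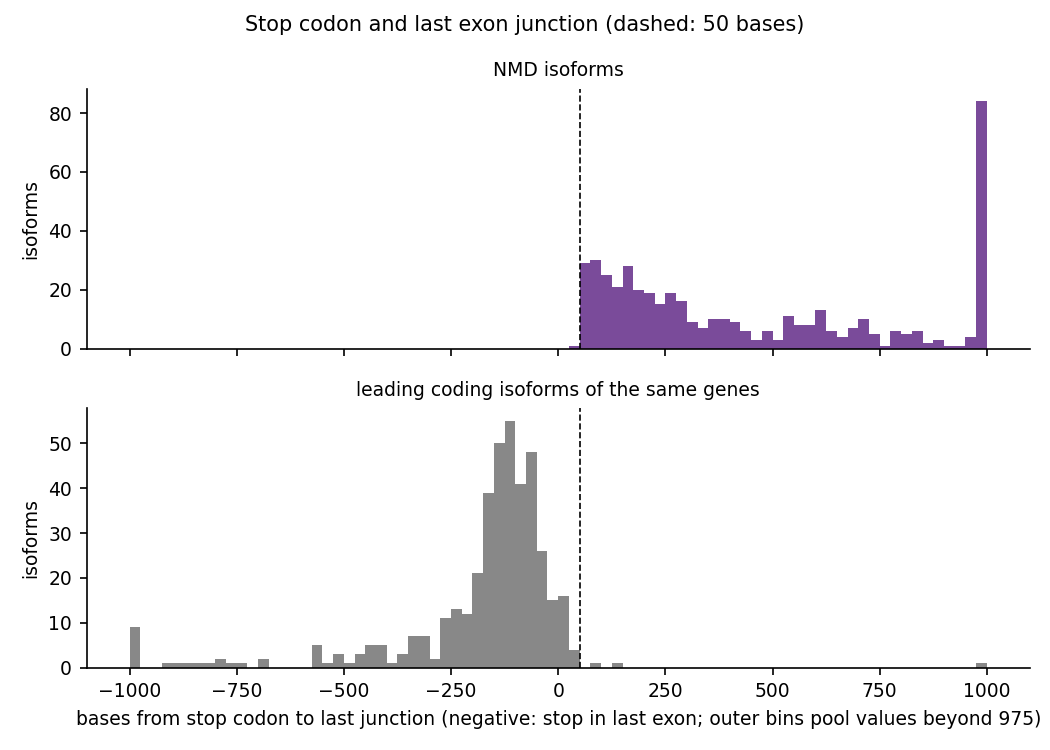
Bases from the stop codon to the last exon junction (x axis; negative where the stop is in the last exon) for NMD isoforms (upper panel) and for the leading coding isoforms of the same genes (lower panel), as numbers of isoforms (y axis); the dashed line marks 50 bases. NMD isoforms lie right of the line in 469 of 471, and coding isoforms left of it in all but 3.

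Frames and transcripts of the class were shorter. The median frame was 95 codons, against 354 in the leading coding isoforms, and the start codon was the same in 412 of 467. The median annotated length was 1770 bases, against 2604, and 365 of 467 isoforms were the shorter of the pair, while both had a median of 7 exons. Thap12-202 is 1123 bases long and Thap12-201 is 3723, and Chpt1-207 is 1447 and Chpt1-201 3898. Only reads of the whole chain count as Known, and the part of transcript length in the shares was not tested. Over all classes of read, the Known reads of Thap12-202 and its companion Thap12-204 were 20.8% of the gene's reads, against 24.5% of its Known reads. This value keeps Known reads alone in the numerator, so it cannot rise. Reads of other classes that carry a junction of the class are not in it, so it is not the share of the class among all reads. It fell by over 1.5 times in 6 of the 25 genes with the most reads. It was 24.3% in place of 45.9% in Tardbp, 29.5% in place of 44.8% in Srsf9, and 12.5% in place of 29.4% in Nbr1. It was 10.9% in place of 23.6% in Ahnak, 9.69% in place of 19.1% in Dcaf11 and 5.73% in place of 13.6% in Smdt1. For 38 isoforms the annotation marks the 5′ end as incomplete.

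Junctions allowed a count that does not need the whole chain, a measure added after the shares had been seen. For 363 isoforms at least 1 junction is annotated in this class alone, 13 others keep an intron, and 96 have neither, Smpx-201 and Tmem234-210 among them. Isoforms of the class in the same gene may share such a junction. The E2f6-204 junctions were in 126 of 166 reads spanning them in replicate 1 (75.9%) and 129 of 171 in replicate 2 (75.4%), close to its Known shares. The kept intron of Ddx5-208 was in 121 of 273 reads (44.3%) and 91 of 235 (38.7%). Tardbp-201 had its junctions in 16 of 38 (42.1%) and 20 of 29 (69.0%), Srsf9-205 in 16 of 25 and 7 of 16, and Actg1-206 in 19 of 72 and 20 of 62. Nbr1-208, which was uneven among Known reads, was in 23 of 66 (34.8%) and 13 of 42 (31.0%) by this count. Over 32 isoforms with at least 10 reads and such a junction, the median was 24.4% by junctions and 23.0% by Known reads. The measures had a Pearson r of 0.964 across isoforms that share their reads. Dcaf11-213 was farthest from the line, at 34.7% by junctions and 7.87% by Known reads. At least 1 of its junctions is also annotated in Dcaf11-216, so its 55 and 57 junction reads include reads of that isoform. Both isoforms together had 19.1% of the gene's Known reads.

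**Figure D5:**
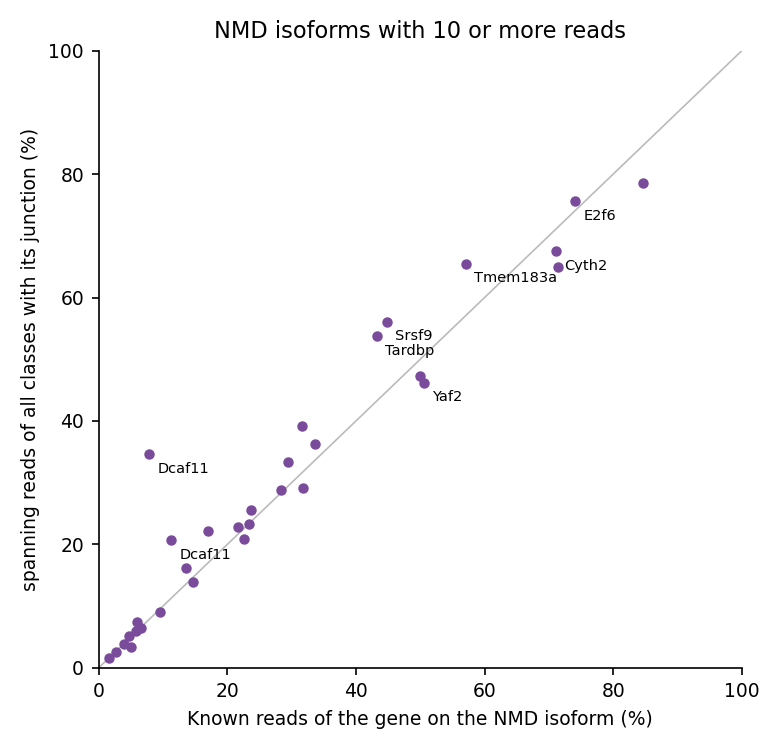
Percent of spanning reads of all classes that carry a junction annotated in the NMD isoform's class alone (y axis) against the percent of the gene's Known reads on that isoform (x axis), for 32 isoforms with at least 10 reads; the line marks equal values. Dcaf11-213 lies farthest from the line, at 34.7% by junctions and 7.87% by Known reads, and at least 1 of its junctions is also annotated in Dcaf11-216.

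Most reads with such junctions were not Known. Of 8985 junctions annotated in this class alone, 1504 were read and 596 of these in both libraries, in 1030 genes. They were carried by 2944 reads in replicate 1 and 2665 in replicate 2, or 0.263% and 0.273% of reads of annotated genes. Known isoforms made up 26.9% of these reads. Models with known splice sites combined in a way not annotated (NIC) made up 53.5%, models with an unannotated splice site (NNC) 11.5% and partial chains (ISM) 8.15%. In 684 of the 1030 genes no Known isoform of the class had a read. Whether such a model keeps a stop codon before its last junction was not tested, so these reads are not counted in the class.

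In some of these genes nearly all spanning reads had the junction. In Phtf2 a junction annotated in Phtf2-207 alone (chr5:20807474-20812940) was in 76 of 79 spanning reads in replicate 1 and 105 of 107 in replicate 2. Celf2 encodes a splicing regulator, and its junction annotated in Celf2-228 alone (chr2:6721614-6872355) was in 70 of 71 and 33 of 34. Lrrfip2 had 40 of 45 and 53 of 56, and Art1, an ADP-ribosyltransferase of muscle, 25 of 26 and 20 of 20. Xpnpep1, an aminopeptidase gene, was mixed with 51 of 93 and 36 of 71. In Crat, the carnitine acetyltransferase of mitochondria, the junction was in 37 of 481 and 35 of 582, and in the growth factor gene Hdgf in 27 of 455 and 21 of 331. These 7 were chosen after their values were seen, from the 10 genes with the most such reads outside Known isoforms of the class. In all 7 the Known reads of the junction were 0.

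Genes of the decay pathway itself were read at low to moderate levels. All 32 genes of the decay machinery list had reads, with a summed level of 928 CPM in replicate 1 and 1079 CPM in replicate 2. The translation initiation factor Eif4g1 alone gave 259 and 385 CPM of these sums. The median over the genes of their mean level was 13.7 CPM. Upf1, the central helicase, had 47 and 83 reads (42.0 and 85.1 CPM), and Upf2, which activates it, 27 and 56. Smg1, the kinase of Upf1, had 10 and 4, and the cutting enzyme Smg6 had 6 and 10. Of the exon junction complex, Eif4a3 had 65 and 37, Rbm8a 37 and 9, Magoh 7 and 5 and Casc3 28 and 21. The decapping enzyme Dcp2 had 5 and 0 reads, where 0 allows up to 3.07 CPM.

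Of the 27 genes of the list that were tested, 5 differed between the libraries by an exact binomial test on TMM library sizes, with Benjamini-Hochberg adjustment over 8394 genes. Of all 8394, 974 (11.6%) differed, with 4.46% of those tested higher in replicate 1 and 7.15% in replicate 2. Rbm8a was higher in replicate 1 (3.29-fold, exact 95% interval 1.56 to 7.76). Upf1 (replicate 1 over replicate 2 of 0.454, 0.310 to 0.656), Upf2 (0.386, 0.235 to 0.622), Eif4g1 (0.618, 0.528 to 0.722) and Edc4 (0.452, 0.290 to 0.695) were higher in replicate 2. The binomial test covers counting error only. The part of transcript length in these calls, and in those over all genes, was not tested. These calls did not hold in an edgeR exact test, but its dispersion came from the same 2 libraries that it compared. That test therefore cannot decide whether the levels differ. Over the tested genes of the list the log2 ratio had a median of -0.18, and over all genes -0.02. Of these genes, 3 have an annotated isoform of the class and at least 20 Known reads, and none of the 3 had a read of it.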

How the data were processed

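Long-read RNA of 2 gastrocnemius libraries was quantified by the submitters. The deposited tables give, for each library, a raw read count for every transcript model, with the number of exons and the length of each model per the file headers. The authors' deposited annotations name TALON and hold GENCODE M21 models on mm10 with models added in each library. Aligner, filters and tool versions: not given in the sources used here. Types were read from the deposited annotation and were the same as in M21 for all 141862 annotated transcripts. Spike-ins were left out.

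The isoforms and gene lists were chosen with earlier results of these data known. Shares are of a gene's Known reads, for genes with at least 20 of them, with Wilson 95% intervals. Libraries were compared by 2-sided Fisher's exact tests, adjusted by the Benjamini-Hochberg method over 6995 isoforms of genes with at least 2 Known isoforms read. Gene levels of at least 10 reads were compared by exact binomial tests on TMM sizes (factors 1.04 and 0.958; edgeR 4.0.16, R 4.3.3). An edgeR exact test with a common dispersion of 0.0624 for genes and 0.0686 for isoforms was an alternative, as were DESeq2 1.42.0 size factors. A quasi-likelihood fit was not possible with 1 library per side. The procedures were tested on simulated data. The text names the 25 genes with the most reads of the class, the 15 highest shares with at least 10 such reads, genes of the lists with such reads and the decay machinery. Python 3.11.15 with scipy 1.17.1 was used.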

Additional observations from a re-analysis of the deposited data

How the results depend on the processing

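No paired analysis was possible because both libraries belong to 1 group. The mean share of Known reads was 0.106% over all reads of annotated genes, 0.156% without isoforms that share a chain, 0.157% without Smpx (an alternative chosen after the data were seen) and 0.875% over genes with an annotated isoform of the class. The difference between the libraries passed the threshold over all reads alone (0.0112 points, Fisher's exact p = 0.0131), where 1117891 and 975696 reads stand in place of 710842 and 578694 Known reads. That comparison also carries the Known fraction of each library, so it cannot decide whether the share of the class differs. Leaving out a library gave 0.170% to 0.176%. With at least 50 Known reads per gene the median share was 2% and 27 genes had at least 10%; with at least 1 Known read, 426 genes had a median of 9.61% and 210 had at least 10%. The limit itself sets which genes enter. Single libraries gave 121 to 163 genes with reads of the class, 31 to 39 with at least 10%, medians of 3.70% to 4% and 313 to 345 isoforms. Isoforms with at least 2 reads numbered 243, and with at least 5 reads 85. All-class denominators called 28 of all isoforms in place of 11, and 0 of the class. The calls of the decay machinery did not hold in the edgeR exact test, which takes the spread between the compared libraries as its error and so cannot decide. Extra introns made up 7.06% of isoforms with at least 5 reads, in place of 4.03%. Other classes of difference stayed within their intervals. With reads of all classes in the denominator alone, 7 of 18 named genes left the interval of their main share. With member and coding isoforms alone in the denominator, 0 of 18 did. At 20 Known reads, an isoform with a true share of a few percent may have no read, so depth limits every share near 0.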
